A study of Arabidopsis thaliana with 6 samples.

Results

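SWEET proteins are sugar transporters of the plasma membrane and the vacuolar membrane that let sugars pass in either direction, down their concentration gradient. Among them, some carry mainly glucose or fructose and others carry sucrose, and they serve in phloem loading, in the supply of seeds, pollen and nectaries, and in filling and emptying the vacuole. Plants moved to the cold are known to accumulate soluble sugars, much of them in the vacuole. The genes described here were chosen by their level: they are those on a probe set of a single gene whose symbol begins with SWEET and whose signal was above 66 on at least 2 of 6 Affymetrix ATH1 arrays. Of 15 such probe sets, 1 per gene, 11 met this rule, out of 22589 features in the series after 1 probe set per gene was kept. They are 10 SWEET transporter genes (SWEET1, SWEET2, SWEET3, SWEET4, SWEET10, SWEET11, SWEET13, SWEET14, SWEET16 and SWEET17) and SWEETIE (AT1G67140). SWEETIE shares the first letters of the name and is no SWEET transporter. It is known from a mutant with altered carbohydrate and trehalose metabolism.

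The arrays held RNA from whole 2-week-old Arabidopsis thaliana seedlings, Columbia-0 wild type or the lcbk1-2 knock-out mutant in the same ecotype, grown with 2% sucrose in the medium in days of 16 h light and 8 h dark. LCBK1 is a kinase that acts on the long-chain bases from which sphingolipids are built. Seedlings of both genotypes were collected before cold, at 22 °C (0 h), and after a stay at 4 °C of 3 h or of 24 h. With 1 array per genotype and time, no condition had a replicate, and precision is limited by this number of arrays. No seedlings held at 22 °C for 3 h or 24 h were measured, so cold cannot be told apart from plant age or, at 3 h, from time of day, and all seedlings had sugar in the medium. The RNA is from whole seedlings, where fewer cells of a type and less RNA per cell cannot be told apart.

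The rule used the level of each gene, so the levels are a description. A signal is the authors' MAS5 value on a linear scale. Signals below 65.9, the 35th percentile of all values, were set to that floor before log2 values were taken. A fit across the 15658 features that exceeded the floor on 2 or more arrays gave the change with time shared by both genotypes and the difference between genotypes shared by the 3 times (limma, Benjamini-Hochberg adjusted p over all features, threshold 0.05). Its SE, interval and p combine 2 residual degrees of freedom of each gene with 4.16 prior degrees of freedom from the spread of all features. The SE is thus not the spread of that gene alone. The residual holds array error together with any difference in cold response between genotypes. Tests are given for the 8 genes above the floor on at least 4 arrays. SWEET3, SWEET10 and SWEET14 were above it on 3, 3 and 2 arrays, could have met the rule through 1 time or genotype alone, and are given as values.

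Per array, the median signal was 144 to 171 and 63.6% to 66.1% of probe sets exceeded the floor. The annotation assigned 0 probe sets to LCBK1, so the genotypes rest on the labels. Hybridization controls were 2.21 times brighter on the wild-type 0 h array than their median over the other 5, and changes without that array are given with the counts of calls. Of the markers of green tissue, LHCB4.1 and LHCB4.2 were on named probe sets, at a signal of 13054 or more on every array. The root gene PYK10 lay between 16738 and 22106. EXPA7 and EXPA18, expansin genes of root hairs, had signals of 121.8 to 340.9. At 24 h LHCB4.2 (log2 change -0.995, adjusted p = 0.00242 in limma), EXPA7 (-0.54, adjusted p = 0.0482) and EXPA18 (-0.49, adjusted p = 0.0459) were lower than at 0 h, and LHCB4.1 (-0.20) and PYK10 (-0.06) did not pass. The part of these markers in the changes described here was not tested. Phloem, flower and seed markers of the lists used were on 0 named probe sets and were not checked.

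**Figure D1:**
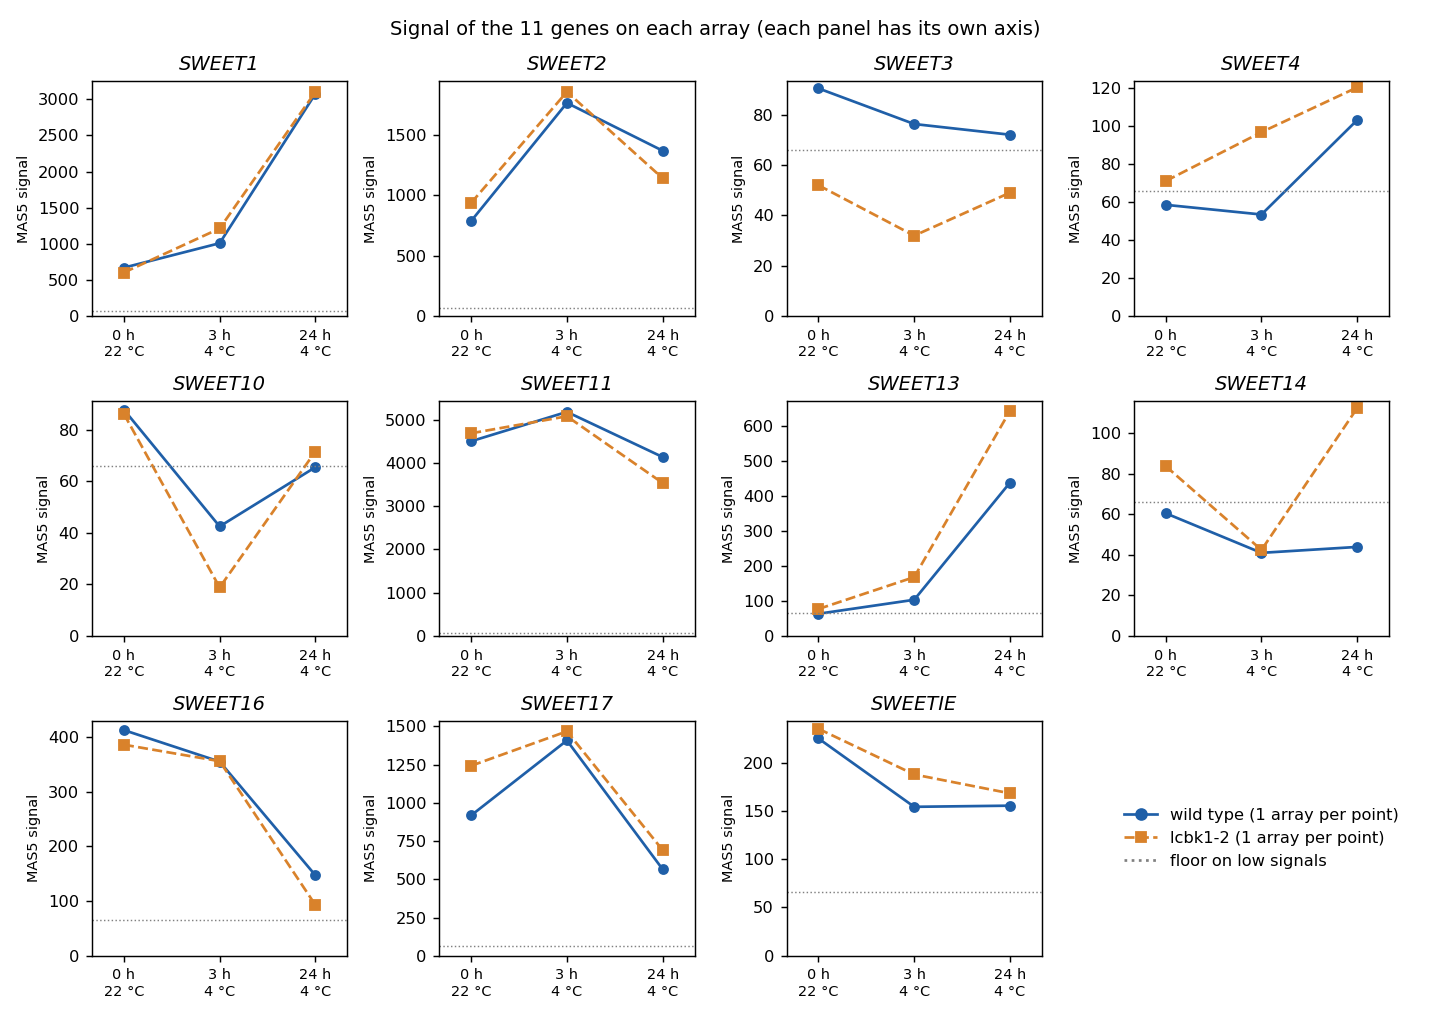
MAS5 signal (linear scale, each panel with its own axis from 0) of the 11 genes at 0 h, 3 h and 24 h, with 1 array per point, circles for wild type and squares for lcbk1-2. The dotted line is the floor of 65.9. In both genotypes SWEET1, SWEET4 and SWEET13 ended highest at 24 h, and SWEET2, SWEET11 and SWEET17 stood highest at 3 h. SWEET11, SWEET16 and SWEET17 stood lowest at 24 h in both.

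SWEET1 (AT1G21460), a glucose transporter of the plasma membrane, had signals of 670.4, 1009 and 3075 at 0 h, 3 h and 24 h in the wild type. In lcbk1-2 they were 603 at 0 h, 1212 at 3 h and 3100.1 at 24 h. The 3 times did not overlap, and the genotypes lay closest together at 24 h. SWEET1 rose 1.74-fold by 3 h (log2 change 0.80, SE 0.15, adjusted p = 0.0204 in limma) and 4.85-fold by 24 h (log2 change 2.28, SE 0.15, adjusted p = 1.5e-04). By genotype, the log2 change at 24 h was 2.20 (wild type) and 2.36 (lcbk1-2). Between 3 h and 24 h it rose by a further 1.48 on the log2 scale (adjusted p = 0.00118 in limma).

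SWEET2 (AT3G14770), a transporter of the vacuolar membrane known to limit the loss of glucose from roots, followed another course. Its signal went from 788 to 1766 and then 1370.3 in the wild type, and from 939 to 1858 and then 1142 in lcbk1-2. Both 3 h arrays were above both 24 h arrays, which in turn were above both 0 h arrays. SWEET2 rose 2.11-fold by 3 h (log2 change 1.07, SE 0.17, adjusted p = 0.0104 in limma). At 24 h the log2 change against 0 h was 0.54 (adjusted p = 0.0383 in limma), with 0.80 in the wild type and 0.28 in lcbk1-2. That call did not hold when the floor was the 20th percentile (adjusted p = 0.0543) or the 50th (0.139), with no floor (0.0620) or with no filter on low features (0.187), and it was lost whichever 1 array was left out (adjusted p 0.0548 to 0.246). The step from 3 h to 24 h, at -0.53, did not pass (95% interval -0.94 to -0.13, adjusted p = 0.0519 in limma). It passed with 32 added to each signal in place of a floor (-0.52, adjusted p = 0.0468). Under median scaling it was -0.33 (adjusted p = 0.178).

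SWEET4 (AT3G28007), a hexose transporter of the plasma membrane, was near the floor. Its signals in the wild type were 58.6 and 53.5 at 0 h and 3 h, both under the floor, and 103 at 24 h. In lcbk1-2 they were 71.1, 96.8 and 120.4. Both 24 h arrays were above all arrays of the earlier times. SWEET4 rose by 24 h (log2 change 0.70, SE 0.16, adjusted p = 0.0129 in limma). With a floor at the 50th percentile every array was set to the floor and the change was 0. The call was also lost with no filter on low features (adjusted p = 0.108) and without either 0 h array or either 24 h array (0.0554 to 0.125).

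The sucrose-carrying group held SWEET11, SWEET13, SWEET10 and SWEET14. SWEET11 (AT3G48740), which exports sucrose from leaf cells for phloem loading together with SWEET12, had signals of 4502, 5180.2 and 4136 at 0 h, 3 h and 24 h in the wild type. In lcbk1-2 they were 4686, 5079 and 3536. The 6 values spanned 0.55 on the log2 scale, the narrowest span of the 8 tested genes. No time comparison of SWEET11 passed, with log2 changes of 0.16 at 3 h (95% interval -0.19 to 0.51) and -0.26 at 24 h (95% interval -0.61 to 0.08). The step from 3 h to 24 h was -0.42 (95% interval -0.77 to -0.08, adjusted p = 0.0642 in limma). It passed under quantile normalization, at -0.55 (adjusted p = 0.0311), and was -0.22 under median scaling (adjusted p = 0.291). Of the 8 alternatives other than leaving out an array, 1 called it. SWEET12, its closest relative, was on 0 probe sets annotated to a single gene, and whether the SWEET11 probe set also reads SWEET12 was not tested.

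SWEET13 (AT5G50800), a sucrose transporter also known to carry gibberellin, had the largest rise of the 8 tested genes at 24 h with the floor of 65.9. In the wild type its signal was 63.3 at 0 h, under the floor, 103 at 3 h and 438 at 24 h. In lcbk1-2 the signals were 77.0, 168 and 643. The times did not overlap, and the lcbk1-2 array was the higher one at each time. SWEET13 rose 1.85-fold by 3 h (log2 change 0.89, SE 0.16, adjusted p = 0.0172 in limma) and 7.45-fold by 24 h (log2 change 2.90, SE 0.16, adjusted p = 8.3e-05). Since the wild-type 0 h value was set to the floor, the wild-type rise at 24 h was at least 6.64-fold, and the rise in lcbk1-2 was 8.35-fold. A floor at the 50th percentile lowered the log2 change to 0.04 at 3 h (adjusted p = 1) and to 1.74 at 24 h, since more of the low arrays were then set to the floor, and SWEET1 (2.28) then had the larger rise.

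SWEET10 (AT5G50790), a sucrose transporter known from the shoot apex at the floral transition, lies next to SWEET13 in the reference gene order, with 0 protein-coding genes between them. Its signals were 87.7, 42.4 and 65.4 in the wild type and 86.0, 18.8 and 71.5 in lcbk1-2 at 0 h, 3 h and 24 h. Both 0 h arrays were above the floor and both 3 h arrays under it. SWEET10 could not have met the rule without a 0 h array. Its higher place at 0 h is thus tied to the rule and is not set against the course of SWEET13. SWEET14 (AT4G25010), a close relative of SWEET13 that acts with it in anthers, was at 60.5, 41.0 and 43.9 in the wild type, all under the floor, and at 83.7, 42.4 and 112 in lcbk1-2. Only the lcbk1-2 arrays of 0 h and 24 h were above the floor. Levels on different probe sets are not set against each other here.

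SWEET16 and SWEET17 are transporters of the vacuolar membrane, SWEET17 mainly of fructose and SWEET16 of several sugars. SWEET16 (AT3G16690) had signals of 412, 355 and 147 at 0 h, 3 h and 24 h in the wild type and of 385, 355 and 92.8 in lcbk1-2. The 0 h and 3 h arrays lay close together and both 24 h arrays lay well below them. SWEET16 fell 3.41-fold by 24 h (log2 change -1.77, SE 0.19, adjusted p = 7.9e-04 in limma), after a change of -0.17 at 3 h that did not pass (95% interval -0.64 to 0.31). By genotype, the log2 change at 24 h was -1.49 (wild type) and -2.06 (lcbk1-2).

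SWEET17 (AT4G15920) had signals of 918, 1408 and 565 in the wild type and of 1242, 1467 and 691 in lcbk1-2. The 3 h arrays were the highest and the 24 h arrays the lowest in both genotypes. The log2 change at 3 h was 0.43 (95% interval 0.06 to 0.79) and did not pass (adjusted p = 0.105 in limma). From 3 h to 24 h SWEET17 fell 2.30-fold, a log2 change of -1.20 (SE 0.15, adjusted p = 0.00216 in limma), to end below 0 h (log2 change -0.77, adjusted p = 0.00717).

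SWEET3 (AT5G53190), in the clade of SWEET1 and SWEET2, was above the floor only on the wild-type arrays. They read 90.4, 76.3 and 72.0 at 0 h, 3 h and 24 h, and those of lcbk1-2 read 52.0, 31.9 and 49.0. SWEETIE had signals of 225, 154 and 155 in the wild type and of 235, 188 and 168 in lcbk1-2, with both 0 h arrays the highest. SWEETIE fell 1.42-fold by 24 h (log2 change -0.51, SE 0.14, adjusted p = 0.0244 in limma). Scaling the arrays to a common median moved its change to -0.32, and the call was lost (adjusted p = 0.102), as it was under quantile normalization (0.0975) and with no filter on low features (0.0657).

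At 3 h, 3 of the 8 tested genes were called, beside 17.2% of all tested features. All 3 were higher (9.28% of all features) and 0 lower (7.88%). At 24 h against 0 h, 7 of the 8 were called, beside 47.8% of all features. Of these, 4 were higher (19.3% of all features) and 3 lower (28.6%). Between 3 h and 24 h, 4 of the 8 were called, 2 higher and 2 lower, beside 34% of all features (12.9% higher, 21.2% lower). In single pairs of arrays, SWEET2 changed by 2-fold or more at 3 h in the wild type (1 of the 11 genes, beside 7.29% of all features) and SWEET1 and SWEET13 in lcbk1-2 (2 of 11, beside 8.38%). At 24 h SWEET1, SWEET13 and SWEET16 did so in both genotypes (3 of 11, beside 22.7% in the wild type and 22.8% in lcbk1-2). SWEET3, SWEET4, SWEET10 and SWEET14 could not reach 2-fold in these pairs, since their floored signals spanned only 0.41 to 0.87 on the log2 scale. The median log2 change of all features was -0.03 at 3 h and -0.11 at 24 h. The share of all features in these counts covers those above the floor on 2 or more arrays. The 8 genes were above it on at least 4, so that share is not matched to them in level. Of 11 SWEET family loci tested under the 2-array filter, SAG29 (described below) included and SWEETIE not, 3 were called higher and 0 lower at 3 h. At 24 h against 0 h 4 were higher and 2 lower, and between 3 h and 24 h 2 were higher and 2 lower. The genes were found by level, with results of these arrays known, so these counts describe them and carry no test of the group.

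With 1 of the 6 arrays left out, limma had 1 residual degree of freedom and called 0 of the 8 at 3 h whichever array was missing (3 to 5 at an unadjusted p under 0.05, against 5 with all arrays). The same fits called between 0% and 3.1% of all features at 3 h. At 24 h it called 4 without the wild-type 0 h array, 3 without the lcbk1-2 0 h array and 3 without either 24 h array. Of all features, 27.2%, 26.1%, 24.7% (wild-type 24 h array left out) and 25.4% (lcbk1-2 24 h array left out) were then called. Without the wild-type 0 h array, the log2 change at 24 h was 2.42 for SWEET1, 3.10 for SWEET13, -1.89 for SWEET16 and -0.90 for SWEET17, and each passed (adjusted p = 0.0116, 0.0100, 0.0252 and 0.0412 in limma). SWEET2 (0.37, adjusted p = 0.246), SWEET4 (0.84, adjusted p = 0.0554) and SWEETIE (-0.44, adjusted p = 0.143) did not pass in that fit. SWEET17 did not pass without the lcbk1-2 0 h array (adjusted p = 0.0783) or without the wild-type or lcbk1-2 24 h array (0.0840 and 0.0775). Between 3 h and 24 h it called 2 without the wild-type 24 h array and 2 without the lcbk1-2 24 h array, against 4, beside 8.37% and 6.94% of all features. The 24 h calls of SWEET1, SWEET13 and SWEET16 passed without any 1 of the 6 arrays.

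**Figure D2:**
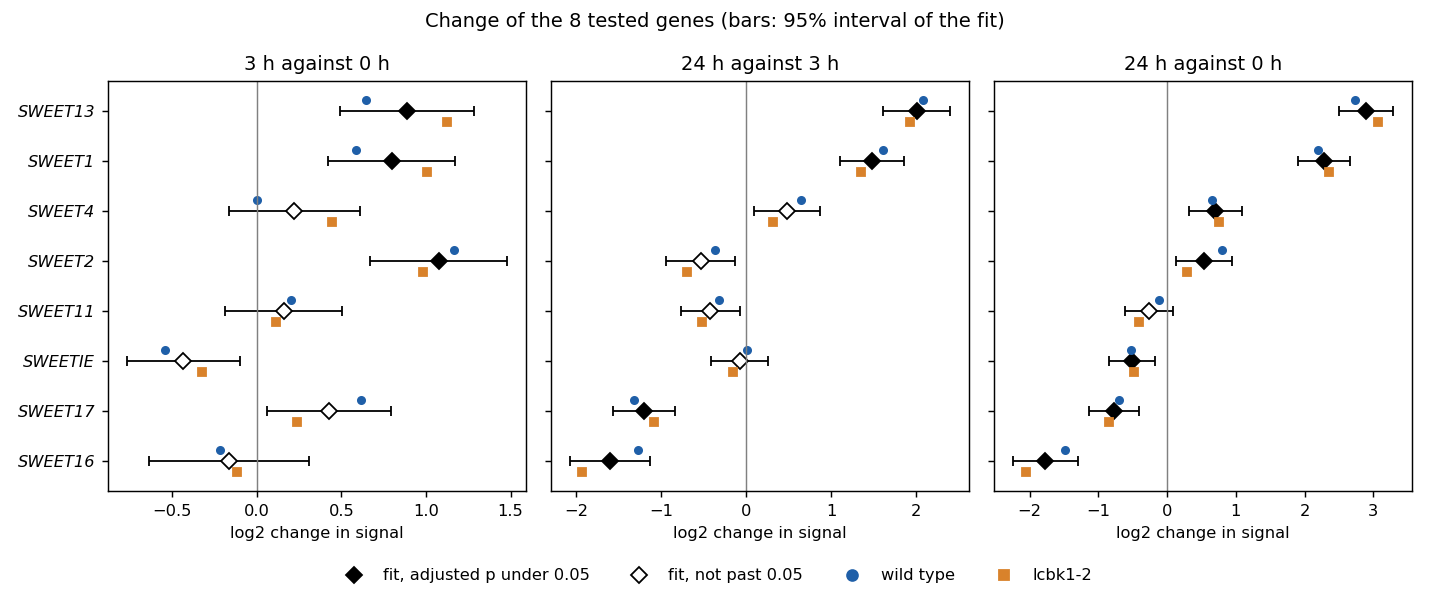
Log2 change in signal of the 8 tested genes between times. Diamonds are the fit with its 95% interval, filled where the adjusted p was under 0.05, and circles and squares are the change in wild type and lcbk1-2, 1 array against 1. At 24 h against 0 h the genes ran from 2.90 for SWEET13 to -1.77 for SWEET16.

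Set against each other by their change at 24 h, the genes came in the order SWEET13, SWEET1, SWEET4, SWEET2, SWEET11, SWEETIE, SWEET17 and SWEET16. With a floor at the 50th percentile SWEET1 came before SWEET13 and SWEET2 before SWEET4, and under quantile normalization SWEETIE (-0.32) came before SWEET11 (-0.36). The spread over the 2 genotypes is the only repeat of a change in this design. By it, SWEET4 and SWEET2 could not be separated at 24 h, since with the floor the change of SWEET4 (0.65 and 0.76) lay within the range of SWEET2 (0.80 and 0.28). The 0.65 of SWEET4 in the wild type is a lower bound, since its 0 h value was set to the floor. The other neighbours in the order did not overlap, though those from SWEET11 to SWEET17 were 0.24 and 0.26 apart on the log2 scale, against an SE of 0.14 to 0.15 for each. At 3 h SWEET2 came first, and the ranges of SWEET2, SWEET13, SWEET1, SWEET17, SWEET4 and SWEET11 each overlapped that of the next. The wild-type change of SWEET4 at 3 h was 0 because both arrays were set to the floor. Among the vacuolar genes, SWEET2 rose by 3 h, SWEET17 fell between 3 h and 24 h, and SWEET16 fell by 24 h. Between 3 h and 24 h the changes of SWEET17 (-1.32 in wild type, -1.09 in lcbk1-2) and SWEET16 (-1.27 and -1.94) overlapped.

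The comparison of lcbk1-2 with wild type asks whether loss of the kinase shifts these genes. None of the 8 passed in limma (0 called, 1 at an unadjusted p under 0.05, beside 0.0128% of all features called), with log2 differences of -0.25 to 0.49. SWEET13 was higher in lcbk1-2 at each of the 3 times, by 0.22, 0.70 and 0.55 on the log2 scale, with the wild-type value at the floor in the first. Its shared difference was 0.49 (SE 0.13, 95% interval 0.17 to 0.82) with adjusted p = 0.466 in limma. SWEET17 was higher in lcbk1-2 by 0.44, 0.06 and 0.29 at 0 h, 3 h and 24 h (shared difference 0.26, 95% interval -0.04 to 0.56, adjusted p = 0.630 in limma). For SWEET1 the shared difference was 0.04 (95% interval -0.27 to 0.35) and for SWEET11 -0.07 (95% interval -0.35 to 0.22).

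Of all 11 genes, 4 lay above wild type in lcbk1-2 at all 3 times (SWEET4, SWEET13, SWEET17 and SWEETIE), beside 15.1% of all features, and 1 lay below (SWEET3), beside 13.3%. SWEET3 met the rule through its wild-type arrays alone, and SWEET4 could not have met it without lcbk1-2 arrays. The place of both in these counts is tied to the rule. In single pairs of arrays, 0 of the 11 differed between genotypes by 2-fold or more at 0 h, 3 h or 24 h, beside 0.683%, 0.722% and 0.817% of all features. SWEET3, SWEET4, SWEET10 and SWEET14 could not do so, since their floored signals spanned only 0.41 to 0.87 on the log2 scale. Before the floor, SWEET14 at 24 h read 43.9 in the wild type and 112 in lcbk1-2. At 3 h SWEET3 read 76.3 and 31.9, and SWEET10 read 42.4 and 18.8. With the floor, the widest gaps were those of SWEET14 at 24 h, higher in lcbk1-2 by 0.77 with the wild type at the floor, of SWEET13 at 3 h, higher by 0.70, and of SWEET16 at 24 h, lower by 0.66. SWEET14 met the rule through lcbk1-2 arrays alone, so its gap is tied to the rule as well. The change of SWEET16 from 3 h to 24 h was thereby -1.27 (wild type) and -1.94 (lcbk1-2), and that of SWEET2 from 0 h to 24 h was 0.80 and 0.28. Whether a cold response differed between genotypes could not be tested, since each rests on 1 array per genotype and time.

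**Figure D3:**
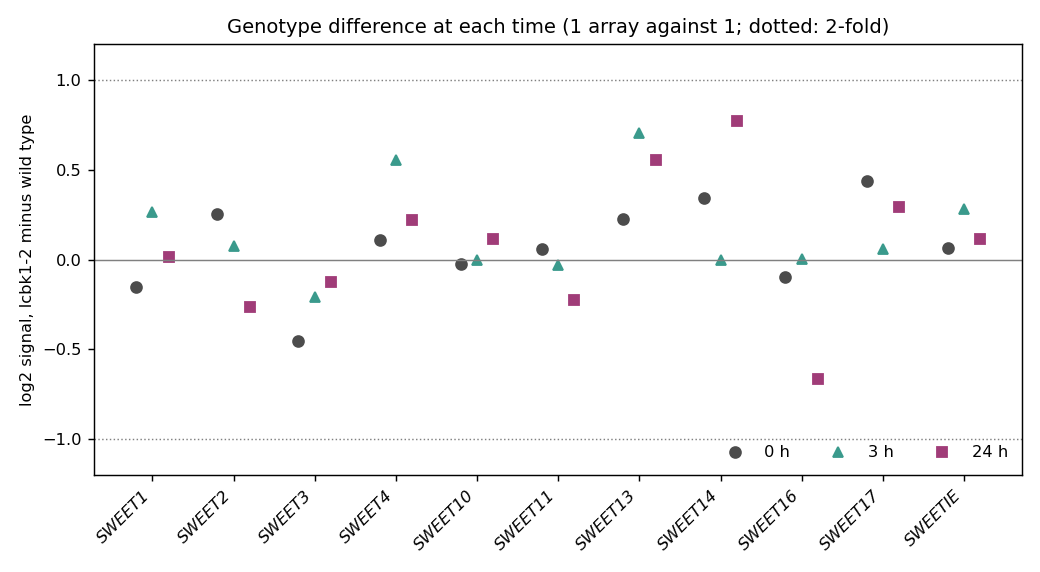
Log2 signal of lcbk1-2 minus wild type for the 11 genes at 0 h (circles), 3 h (triangles) and 24 h (squares), 1 array against 1, with low signals set to the floor. Dotted lines mark 2-fold, and all points lie between -0.66 and 0.77.

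The other SWEET probe sets were low. SWEET6, SWEET7, SWEET8 (a pollen gene) and SWEET9 (a nectary gene) did not meet the rule, with signals between 4.08 and 85.6. SWEET6 came nearest by its highest array, 85.6 in lcbk1-2 at 24 h, but its next array read 41.7, while that of SWEET9 read 47.7. Just inside the rule, the array of SWEET3 with the second highest signal read 76.3. The RefSeq gene table (TAIR10.1) gives SWEET5 and SWEET15 as other names of AtVEX1 and SAG29, whose symbols do not begin with SWEET. AtVEX1, known from pollen, was under the floor on all 6 arrays. SAG29, a senescence-associated sucrose transporter, read 124, 185 and 182 in the wild type and 220.1, 356 and 239 in lcbk1-2 at 0 h, 3 h and 24 h. The lcbk1-2 array was higher at each time, with a shared log2 difference of 0.72 that did not pass (adjusted p = 0.384 in limma), nor did the change at 3 h, at 0.63 (adjusted p = 0.0565).

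Among 41 loci of other sugar transporter families, 11 were on named probe sets of a single gene and 9 were tested. At 24 h against 0 h 2 were higher and 3 lower, beside 19.3% and 28.6% of all features, with a median log2 change of 0.05 against -0.11 for all features. TMT2, a sugar importer of the vacuolar membrane, went from 303 to 373 and 1544 in the wild type and from 395 to 425 and 1776 in lcbk1-2. TMT2 rose by 2.26 on the log2 scale at 24 h (SE 0.14, adjusted p = 1.0e-04 in limma), with its relative TMT1 at 0.26 (adjusted p = 0.147). SFP1 and SFP2, sugar transporter genes of the ERD6-like group, fell by 2.23 and 2.00 on the log2 scale at 24 h (adjusted p = 2.3e-04 and 5.9e-04 in limma), with changes of -0.02 and 0.04 at 3 h. AT5G61520 fell by 1.89 (adjusted p = 6.6e-04 in limma). At 3 h 1 of the 9 was called, beside 17.2% of all features, AT5G17010, at 0.75 (adjusted p = 0.0206 in limma). Of 22 loci of sucrose metabolism 4 were tested, and at 24 h 2 were higher and 1 lower, beside the same shares of all features. ATSPS4F, a sucrose-phosphate synthase, was the 1 called at 3 h, with a log2 change of 1.25.

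**Figure D4:**
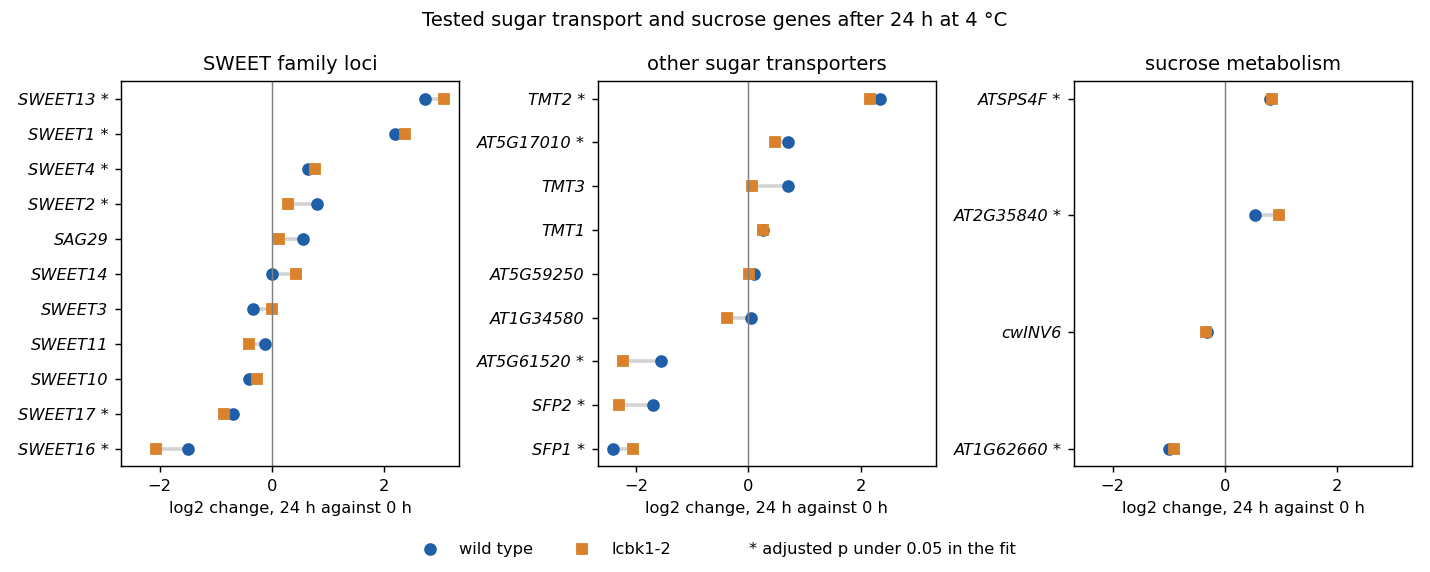
Log2 change from 0 h to 24 h in wild type (circles) and lcbk1-2 (squares), 1 array against 1, for the tested loci of the SWEET family, of other sugar transporters and of sucrose metabolism. An asterisk marks an adjusted p under 0.05 in the fit. SWEET13, SWEET1 and TMT2 lie farthest right, and SFP1, SFP2, AT5G61520 and SWEET16 farthest left, in both genotypes.

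For the 4 genes above the floor on all 6 arrays that spanned at least 1 on the log2 scale, the most alike profiles were sought among 6849 other annotated features. Likeness was the root mean square difference of the log2 profiles over the 6 arrays, each centred on its own mean. AT3G09440 came nearest to SWEET1 at 0.07, with signals of 4129, 6763 and 18690 at 0 h, 3 h and 24 h in the wild type, and AT2G18520 was as near, at 0.07. AT1G71850 followed at 0.11. AT5G41050 was nearest to SWEET2 at 0.06, followed by AT5G55380 at 0.09 and AT4G19985 at 0.10. AT5G25630 and AT1G70280 were nearest to SWEET16 at 0.08 each, then AT1G70100 at 0.13. AT1G55265, AT4G09890 and AT1G12500 were each at 0.09 from SWEET17. Such values describe 6 arrays and were picked as the smallest of many.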

How the data were processed

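RNA from 6 samples of whole seedlings was hybridized to Affymetrix ATH1 arrays. The authors deposited a linear intensity for every probe set on each array. Per the submitters' processing notes this is the MAS5 signal, with no version or settings given in the sources used here. Its 2% trimmed mean is equal on all arrays, so each had been scaled. Of 22810 features, 64 controls were left out. Probe sets were named by the platform annotation and the RefSeq gene table (TAIR10.1): 13513 of 1 gene, 503 of several and 8730 of none. Where a gene had several probe sets, that of highest mean was used.

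Log2 values of floored signals were fitted with limma 3.58.1 in R 4.3.3 (genotype and time as additive terms, empirical Bayes with 4.16 prior degrees of freedom, two-sided), tested on simulated data first. The alternatives were other floors or none, a pseudocount of 32, no filter, median scaling, quantile normalization, the mean over probe sets, and each array left out. Genes named are the members, SWEET probe sets below the rule, tested list genes that were called and changed by at least 1 on the log2 scale between times, and the 3 most alike profiles per member. TMT1, AT5G17010, AtVEX1 with SAG29 and the markers come from the same lists and were named after their values were seen. The members and lists were chosen with earlier results of these data known. Promoter and protein sequences were not used here.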

Additional observations from a re-analysis of the deposited data

Results flagged for a closer look

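For SWEETIE between 3 h and 24 h the log2 change differed in sign between the genotypes, at 0.01 (wild type) and -0.16 (lcbk1-2). The gap of -0.17 was not tested. It holds the error of several arrays, whereas the prior SD of the fit, 0.158, is that of a single array. The wild-type signals were 154 at 3 h and 155 at 24 h, so the wild type hardly changed. The change shared by the genotypes was -0.07, and it was 0.13 under median scaling and under quantile normalization.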

How the results depend on the processing

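Of 14 calls between times among the 8 tested genes, 13 kept their direction under all 8 alternatives other than leaving out an array, and all 14 kept it with any 1 array left out. Some settings could not change a direction. The mean over probe sets could not, since each gene had 1 probe set, nor could the lack of a filter, which leaves each fitted change as it was. Leaving out an array of the time not compared also returns the same change. The exception was SWEET4 at 24 h, whose change was 0 with a floor at the 50th percentile. Calls were more fragile: 3 of the 14 passed under all 8 alternatives and 5 without any 1 array. With no filter on low features, limma called 0 of the 8 at 3 h (4 at an unadjusted p under 0.05), 2 at 24 h (SWEET1 and SWEET13) and 1 between 3 h and 24 h (SWEET13), against 3, 7 and 4, and it then called 0.549%, 15.9% and 7.01% of all features. When the floor was the 50th percentile it called 0 at 3 h (4 at an unadjusted p under 0.05), beside 4.5% of all features. Leaving out 1 array gave 0 at 3 h each time, 3 to 6 at 24 h and 2 to 4 between 3 h and 24 h, beside 0% to 3.1%, 24.7% to 41.8% and 6.94% to 25.2% of all features. The genotype comparison called 0 under every setting (0 to 2 at an unadjusted p under 0.05). Median scaling moved the median log2 change of all features at 24 h from -0.11 to 0.06, and raised the 24 h share of higher calls from 40.3% to 55.2% over all features. Between 3 h and 24 h that share was 37.8%, against 58.4% under median scaling and 48.6% under quantile normalization. Among the 8 tested genes the call of SWEETIE at 24 h was lost under median scaling, while the other 6 calls at 24 h remained. SWEET4 between 3 h and 24 h passed under median scaling (0.67) and quantile normalization (0.66). The cause of each lost call was not tested. The additive fit compared the genotypes within each time and the times within each genotype. Pairing by replicate was not possible because each group holds 1 array and the labels give no replicate numbers. Genes within reach of the floor (SWEET3, SWEET4, SWEET10, SWEET13 at 0 h and SWEET14) are limited by signal over background. SWEET16 at 24 h was above the floor (147 and 92.8), but its change at 24 h went from -1.77 to -1.33 with a floor at the 50th percentile.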
